A study of Homo sapiens with 6 samples.

Results

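The transcripts described here are 41 genes of the ATF4 stress response, the aminoacyl-tRNA synthetases and the amino acid enzymes and transporters that this response controls. They were taken by symbol from a deposited table of 15376 coding genes, in which each of the 41 had 1 row, and they fall into 20 cytosolic synthetase genes, 8 genes of amino acid synthesis and one-carbon metabolism, 5 amino acid transporter genes and 8 stress regulators and targets. Messenger RNA was sequenced from PC9ER, an established human lung cancer cell line that is driven by EGFR, the receptor tyrosine kinase that gefitinib inhibits, and that is labelled as resistant to the drug. There were 3 libraries of cells given 1 µM gefitinib for the final 6 h and 3 libraries of control cells given the vehicle DMSO. The protocol, given once for every sample, puts 72 h of DMSO (as the vehicle of the compound DBZ) and an overnight period without serum before the gefitinib, so both groups carry the vehicle; culture medium held 10% serum for all samples, and the protocol does not give the serum state of the control cells. Whether the 3 libraries of a group were separate cultures is not labelled, so p-values measure the spread between these libraries, which may be technical.

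ATF4 is a transcription factor whose messenger RNA is translated best when the initiation factor eIF2 is phosphorylated by one of its kinases, for example when amino acids run short or unfolded protein builds up in the endoplasmic reticulum. ATF4 then pairs with proteins of the C/EBP family and switches on genes that supply amino acids, load them onto tRNA and adjust translation and survival. Aminoacyl-tRNA synthetases join amino acids to their tRNAs, most of them for a single amino acid, and several of their genes are known ATF4 targets.

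ATF4-type composite elements share the core TGATGNAA, in which N is any base, and many hold its form TGATGCAA. RefSeq promoter windows (GRCh38.p14), from 250 bases before to 50 bases after an annotated start, were matched by symbol for 33 of the 41 genes (all but DARS, LARS, VARS, YARS, PSPH, SHMT2, ALDH1L2 and PYCR1), and 13 of the 33 held TGATGNAA on either strand, which is 39.4%. Of 11509 tested genes matched to the same windows by symbol, 3.10% held it. The narrower TGATGCAA, which is contained in the first motif, stood in the windows of 9 of the 33 genes (27.3%) and of 0.808% of the matched genes. Since members were chosen in part as known ATF4 targets, these shares are a description only. The stretches around the core are printed here for 9 of the 13 genes to show what they share, 5′ to 3′ on the strand of the gene, with the core in capitals; TTNCATCA is the same core read on the other strand. The first 3 belong to synthetase genes that were higher with gefitinib, the next 2 to synthetase genes that were lower, and the last 4 to genes whose call is given with their values.
MARS, chr12:57488053-57488082, plus strand: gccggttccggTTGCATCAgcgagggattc
CARS, chr11:3057407-3057436, minus strand: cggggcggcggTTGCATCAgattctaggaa
GARS, chr7:30594834-30594863, plus strand: ttacgcggcgaTTTCATCAtgctccgagcc
IARS, chr9:92293692-92293721, minus strand: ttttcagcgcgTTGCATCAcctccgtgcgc
TARS, chr5:33440956-33440985, plus strand: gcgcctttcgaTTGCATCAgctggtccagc
AARS, chr16:70289675-70289704, minus strand: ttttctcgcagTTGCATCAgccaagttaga
NARS, chr18:57621804-57621833, minus strand: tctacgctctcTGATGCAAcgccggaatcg
CEBPG, chr19:33374060-33374089, plus strand: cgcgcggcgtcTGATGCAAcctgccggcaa
SLC1A5, chr19:46784893-46784922, minus strand: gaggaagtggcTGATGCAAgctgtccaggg

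The 250 bases before the start are printed for ASNS and CHAC1, the members with the largest rises in their groups. In ASNS the core lies from -68 to -61 relative to the start, and in CHAC1 from -209 to -202.
ASNS, chr7:97872409-97872658, minus strand: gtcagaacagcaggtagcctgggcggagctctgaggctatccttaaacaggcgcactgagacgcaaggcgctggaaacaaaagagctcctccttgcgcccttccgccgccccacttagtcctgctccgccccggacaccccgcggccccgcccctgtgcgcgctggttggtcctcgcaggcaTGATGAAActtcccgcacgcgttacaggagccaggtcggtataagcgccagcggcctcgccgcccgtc
CHAC1, chr15:40953221-40953470, plus strand: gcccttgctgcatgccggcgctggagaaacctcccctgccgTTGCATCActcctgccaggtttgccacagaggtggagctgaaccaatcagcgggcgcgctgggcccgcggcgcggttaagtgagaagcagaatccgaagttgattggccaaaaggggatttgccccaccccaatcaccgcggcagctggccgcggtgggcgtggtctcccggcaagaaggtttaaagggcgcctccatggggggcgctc

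The gefitinib libraries held from 13674237 to 38581498 reads in coding genes and the control libraries from 16211544 to 25639050, and values are given as the authors' normalized read counts, scaled to the same total in every library. On the second principal component, with 9.59% of the variance, control replicate 1 stood at 38.1 and control replicates 2 and 3 at -12.6 and -28.8, and gefitinib replicate 1, at 23.3, also lay away from its group, at -8.86 and -11.1. Epithelial keratins were abundant, with KRT8 at a mean of 15577 in gefitinib and 22399 in control libraries, and the epithelial adhesion gene EPCAM at 12017 and 9764; CDH1 was also abundant and the surfactant gene SFTPB was low, at 14.6 and 7.82. Of the 7 epithelial markers tested, 1 rose (EPCAM) and 5 fell (limma adjusted p under 0.05), beside 28.3% and 22.8% of all tested genes, while edgeR called 0 higher and 5 lower; limma gave the keratin genes KRT18, KRT7 and KRT19 at -0.66 ± 0.10, -0.88 ± 0.17 and -1.07 ± 0.22; their part in the results was not tested. The 4 fibroblast markers in the table summed to between 47.6 and 68.0 in gefitinib and between 32.4 and 71.4 in control libraries, none passed the test in either direction with limma, also at an unadjusted p under 0.05, and edgeR called 0 of the 1 it tested. The 6 blood markers in the table summed to between 30.9 and 40.7 in gefitinib and between 17.8 and 32.4 in control libraries. By limma CD14 rose, from few reads, with 30 in all gefitinib libraries and 1 in all control libraries. Of the blood markers edgeR tested 1 and called 0. In bulk RNA, fewer cells of a kind and less RNA per cell cannot be told apart.

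With gefitinib, 4 of 8 amino acid enzyme genes, 3 of 5 transporter genes and 6 of 8 stress genes rose. The synthetases moved in both directions, as did all tested genes. Of the 41 genes, 18 were higher and 9 lower at an adjusted p under 0.05 (limma, adjusted by Benjamini-Hochberg over all 15229 genes tested), where 28.3% of all tested genes were higher and 22.8% lower. Thus 65.9% of the members passed the test, against 51.1% of all genes tested and 61.8% of the genes with a mean of 100 or more. In 30 of the 41 genes the libraries of the 2 groups kept apart, 21 with gefitinib above control and 9 below, against 58% of all tested genes, 32.3% above and 25.7% below. The median log2 difference, gefitinib minus control, was 0.22 over the members and 0.10 over all tested genes. At least 2-fold, 8 members rose and 1 fell, against 12.4% and 9.92% of all genes. The largest rise was in ASNS, at 3.70 on the log2 scale, and the largest fall in TRIB3, at -1.69.

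**Figure D1:**
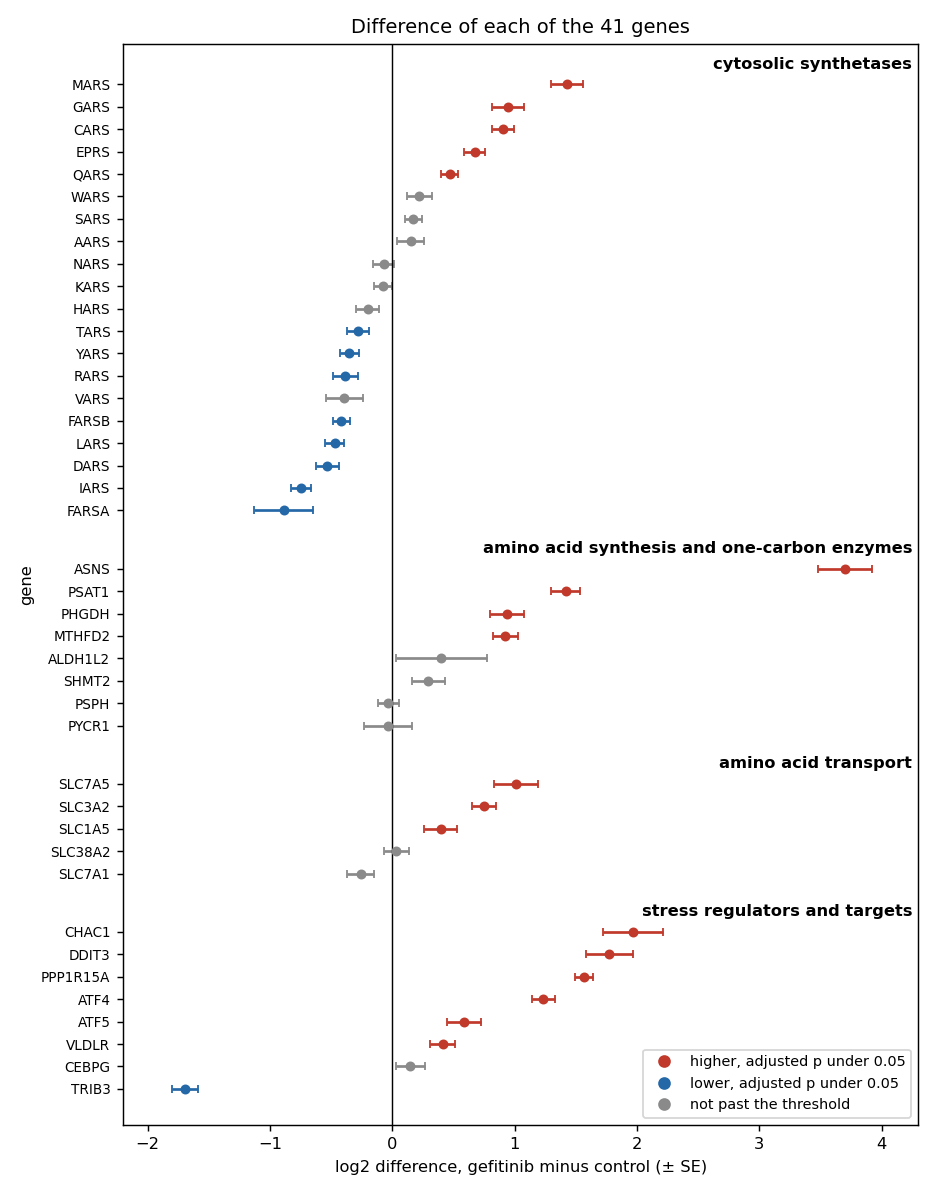
Log2 difference, gefitinib minus control, with its standard error (horizontal axis) for each of the 41 genes (vertical axis), in 4 groups. ASNS stands farthest to the right at 3.70, TRIB3 farthest to the left at -1.69, and the 20 synthetases spread from -0.89 to 1.43.

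Among the regulators, ATF4, the factor at the centre of the response, had 8579, 10037 and 10842 normalized reads in the gefitinib libraries, against 4375, 4042 and 4046 in the control libraries. The groups were far apart, and the log2 difference in ATF4 was 1.24 with a standard error (SE) of 0.10 (limma adjusted p = 1.02e-05). DDIT3 encodes CHOP, a factor that ATF4 switches on and that promotes cell death under lasting stress. It had 706, 831 and 1018 normalized reads with gefitinib and 318, 221 and 210 in control, and rose by 1.77 ± 0.19 (limma adjusted p = 6.13e-05). PPP1R15A encodes GADD34, which guides a phosphatase to eIF2 and so restores translation. It had 6154, 6626 and 6778 normalized reads with gefitinib and 2142, 2257 and 2201 in control, a rise of 1.57 ± 0.07 with a narrow spread in both groups.

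CHAC1, which encodes an enzyme that breaks down glutathione, was the scarcest gene of this group and the one with the largest rise. It had 110, 155 and 146 normalized reads with gefitinib, against 32.4, 29.01 and 41.5 in control, a rise of 1.97 ± 0.25 (limma adjusted p = 0.000158). ATF5, a relative of ATF4 that is also controlled at translation, had 741, 825 and 967 normalized reads with gefitinib and 499, 531 and 657 in control, a rise of 0.59 ± 0.14 (limma adjusted p = 0.00665). VLDLR, a lipoprotein receptor gene that ATF4 is known to induce, rose by 0.41 ± 0.10, with 966, 1136 and 1170 with gefitinib and 847, 821 and 784 in control. CEBPG, which encodes a dimer partner of ATF4, had 1233, 1548 and 1472 with gefitinib and 1428, 1118 and 1291 in control; these values overlap, and its difference of 0.15 ± 0.12 did not pass the test (limma adjusted p = 0.340). Of the 8 genes in this group 6 rose, 1 fell and 1 did not pass, with a median of 0.91. Among all tested genes 28.3% were higher and 22.8% lower.

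TRIB3 went against the others of its group. It encodes a pseudokinase that ATF4 and CHOP induce and that in turn restrains both. It had 947, 1211 and 1234 normalized reads in gefitinib libraries, against 3619, 3586 and 3686 in control libraries, a fall to less than any control value (-1.69 ± 0.11, limma adjusted p = 3.77e-06). Within each library, the ratio of TRIB3 to ATF4 normalized reads was between 0.110 and 0.121 with gefitinib and between 0.827 and 0.911 in control. The 3 RefSeq windows of TRIB3 held no TGATGNAA.

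**Figure D2:**
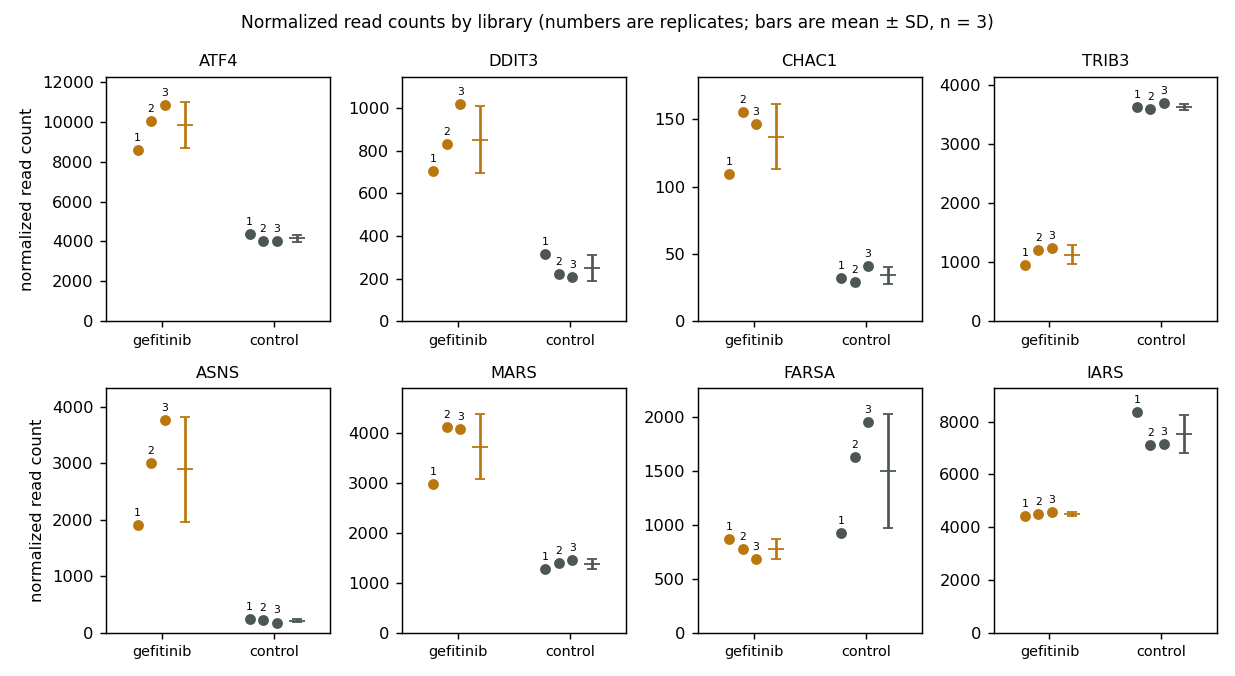
Normalized read counts (vertical axes, from 0) of 8 genes in the 3 gefitinib and 3 control libraries; numbers mark replicates and bars the mean ± SD. ATF4, DDIT3, CHAC1, ASNS and MARS are higher in all gefitinib libraries, TRIB3, FARSA and IARS lower, and FARSA in control replicate 1, at 922, lies near the gefitinib values.

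The genes of amino acid synthesis and one-carbon metabolism rose or did not pass the test. Of 8 genes 4 rose, 0 fell by limma (also 0 at an unadjusted p under 0.05 and 0 of 7 by edgeR) and 4 did not pass, with a median log2 difference of 0.66. By limma 50% were higher and 0% lower, against 28.3% and 22.8% of all tested genes. The share that passed in either direction was 50%, against 51.1% of all tested genes. ASNS, which makes asparagine and is the classical target of the amino acid response, had 1916, 3007 and 3761 normalized reads with gefitinib, against 243, 220 and 182 in control. Every gefitinib library was far above every control library, and gefitinib replicate 1 was the lowest of its group, as it was for 30 of the 41 genes. That library also lay apart over all genes, at 23.3 on the second principal component against -8.86 and -11.1. How often it was the lowest over all genes was not counted. The mean of ASNS with gefitinib was 13.5 times that of control (limma adjusted p = 3.05e-06).

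The serine pathway makes serine from a glycolytic intermediate in 3 steps, by PHGDH, PSAT1 and PSPH. PHGDH, the first step, had 8249, 9611 and 10588 normalized reads with gefitinib and 4040, 5099 and 5807 in control, a rise of 0.94 ± 0.14 (limma adjusted p = 0.000435). PSAT1, the second, had 4050, 4997 and 5548 with gefitinib and 1929, 1764 and 1735 in control, a rise of 1.42 ± 0.12 (limma adjusted p = 1.36e-05). PSPH, the last, had 999, 1019 and 1072 with gefitinib and 998, 1099 and 1061 in control. Its values overlapped, and its difference was -0.03 ± 0.09 (limma adjusted p = 0.786).

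Serine then feeds the mitochondrial one-carbon enzymes. MTHFD2, a folate enzyme of the mitochondrion, had 5183, 5737 and 5936 normalized reads with gefitinib and 3380, 2701 and 2836 in control, a rise of 0.92 ± 0.10 (limma adjusted p = 6.92e-05). SHMT2, which splits serine and loads folate, had 3254, 3379 and 3331 with gefitinib and 2131, 2882 and 3228 in control. The SHMT2 groups did not overlap, but its controls spread widely and the difference of 0.30 ± 0.14 did not pass (limma adjusted p = 0.102); leaving out control replicate 3 gave 0.0190 (the alternatives spanned 0.0190 to 0.221). ALDH1L2, another mitochondrial folate enzyme, was hardly transcribed, with 32 reads in all gefitinib libraries and 21 in all control libraries, and PYCR1, the proline synthesis gene, had 348, 388 and 419 with gefitinib and 289, 414 and 510 in control (limma adjusted p = 0.895).

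Of the transporters, SLC7A5 and SLC3A2 encode the light and heavy chains of LAT1, the exchanger that brings leucine and other large neutral amino acids into the cell, and both rose. SLC7A5 had 4291, 5156 and 5819 normalized reads with gefitinib and 1898, 2603 and 3182 in control (1.01 ± 0.18, limma adjusted p = 0.00126). SLC3A2 had 4473, 5181 and 5659 with gefitinib and 2883, 3068 and 3106 in control (0.75 ± 0.10, limma adjusted p = 0.000172). The SLC7A5 to SLC3A2 ratio of normalized reads within a library was 0.959, 0.995 and 1.03 with gefitinib and 0.658, 0.848 and 1.02 in control, so the ranges overlapped.

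SLC1A5, the glutamine carrier ASCT2, had 7170, 7947 and 8481 normalized reads with gefitinib and 4838, 6189 and 7101 in control, a rise of 0.39 ± 0.13 (limma adjusted p = 0.0337) with no overlap but a narrow gap. That call was lost without gefitinib replicate 2, gefitinib replicate 3 or control replicate 2 (limma adjusted p = 0.0985, 0.114 and 0.0668; the alternatives spanned 0.00553 to 0.114). SLC38A2, the SNAT2 carrier of small neutral amino acids, was the most abundant member per kb of exon, at 3244 normalized reads per kb in control, second with gefitinib to ATF4, and its values overlapped, at 20286, 21232 and 24122 with gefitinib and 23983, 20542 and 19725 in control (limma adjusted p = 0.811). SLC7A1, the carrier of arginine and lysine, had 3256, 3282 and 3553 with gefitinib and 3486, 4024 and 4643 in control (-0.26 ± 0.11, limma adjusted p = 0.0695). It was called lower with TMM scaling (limma adjusted p = 0.0225), by edgeR (0.0184) and without control replicate 1 (0.00257), and the alternatives spanned 0.00257 to 0.217. Of the 5 transporters 3 rose, 0 fell by limma (1 at an unadjusted p under 0.05, and 1 by edgeR, each time SLC7A1) and 2 did not pass. By limma 28.3% of all tested genes were higher and 22.8% lower.

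The 20 synthetase genes moved in both directions. Of them 5 rose, 8 fell and 7 did not pass, so 25% were higher and 40% lower, against 28.3% and 22.8% of all tested genes. Their median log2 difference was -0.14, while that of all genes was 0.10. With TMM scaling 5 rose and 10 fell, beside 25.8% and 24.9% of all genes, and edgeR gave the same 2 numbers beside 30.5% and 30.8%, with HARS and VARS as the further genes called lower. The largest rise was 1.43 in MARS and the largest fall -0.89 in FARSA.

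The 5 that rose were the genes for the methionine, glycine, cysteine, glutamate and proline, and glutamine enzymes. MARS had 2988, 4123 and 4087 normalized reads with gefitinib, against 1270, 1396 and 1461 in control, a rise of 1.43 ± 0.13 (limma adjusted p = 2.39e-05). GARS, which charges tRNA in both cytosol and mitochondrion, had 7370, 9009 and 10192 with gefitinib and 5302, 4315 and 4138 in control (0.95 ± 0.13). CARS had 1424, 1570 and 1633 with gefitinib and 772, 868 and 827 in control (0.91 ± 0.09). All 3 carry the core shown above, MARS and CARS as TGATGCAA across the annotated start and GARS as a variant from -33 to -26. EPRS, a single protein with glutamate and proline activities, had 7784, 8474 and 8565 with gefitinib and 5723, 4911 and 4938 in control (0.67 ± 0.09). QARS had 5687, 5482 and 5400 with gefitinib and 3793, 4098 and 4079 in control (0.47 ± 0.07), and in all 5 genes the groups did not overlap.

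In the limma fit to all 6 libraries, on the authors' scaling, the falls were each of less than 2-fold. On the same 6 libraries FARSA was at -1.002 on the log2 scale by edgeR and -1.006 by DESeq2. IARS, the isoleucine enzyme, had 4427, 4480 and 4567 normalized reads with gefitinib and 8368, 7119 and 7136 in control (-0.74 ± 0.08, limma adjusted p = 8.15e-05), and its window holds TGATGCAA from -13 to -6. DARS, the aspartate enzyme, had 2652, 2397 and 2360 with gefitinib and 4006, 3399 and 3334 in control (-0.53 ± 0.09). LARS, the leucine enzyme, had 3309, 3085 and 3015 with gefitinib and 4637, 4226 and 4183 in control (-0.47 ± 0.08). In these 3 genes every gefitinib library was below every control library, by a wide margin.

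The phenylalanine enzyme is built from chains encoded by FARSA and FARSB, and both fell. FARSB had 3229, 3129 and 3216 normalized reads with gefitinib and 4328, 4331 and 4115 in control (-0.42 ± 0.07, limma adjusted p = 0.000862). FARSA had 872, 776 and 684 with gefitinib and 922, 1625 and 1956 in control (-0.89 ± 0.24, limma adjusted p = 0.0122). Control replicate 1 sat just above the gefitinib libraries for FARSA, and without it the difference was -1.20 (limma adjusted p = 1.88e-05). The FARSA to FARSB ratio of normalized reads was 0.270, 0.248 and 0.213 with gefitinib and 0.213, 0.375 and 0.475 in control, with control replicate 1 at the low end.

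RARS, the arginine enzyme, YARS, the tyrosine enzyme, and TARS, the threonine enzyme, completed the falls, at -0.38 ± 0.10, -0.35 ± 0.08 and -0.28 ± 0.09 on the log2 scale. TARS had 8727, 9010 and 9083 normalized reads with gefitinib and 12237, 10458 and 10019 in control (limma adjusted p = 0.0243). The TARS call was lost without gefitinib replicate 1, 2 or 3 or without control replicate 2 (limma adjusted p = 0.0745, 0.0793, 0.0597 and 0.0519; the alternatives spanned 0.00879 to 0.0793). VARS, the valine enzyme, had 1082, 1098 and 1166 with gefitinib and 1128, 1588 and 1747 in control, with control replicate 1 inside the gefitinib range. It did not pass (limma adjusted p = 0.0535) but was called lower with TMM scaling (limma adjusted p = 0.0175), by edgeR (0.0128), with both filters on low values (0.0491 and 0.0495) and without control replicate 1 (0.000149), and the alternatives spanned 0.000149 to 0.168.

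Besides VARS, 6 synthetases did not pass. WARS, the tryptophan enzyme, SARS, the serine enzyme, and AARS, the alanine enzyme, had differences of 0.22 ± 0.10, 0.17 ± 0.07 and 0.15 ± 0.11 on the log2 scale, and NARS, KARS and HARS, for asparagine, lysine and histidine, had -0.07 ± 0.09, -0.07 ± 0.07 and -0.20 ± 0.10. The SARS groups did not overlap, at 5969, 6153 and 5853 normalized reads with gefitinib and 5430, 5291 and 5235 in control (limma adjusted p = 0.0599), and those of WARS did not either, at 1092, 1210 and 1250 with gefitinib and 911, 1067 and 1073 in control (limma adjusted p = 0.0997). SARS was called higher with both filters on low values (limma adjusted p = 0.0479 and 0.0462) and without control replicate 1 (0.0159), but not with TMM scaling (0.291) or by edgeR (0.262), and its alternatives spanned 0.0159 to 0.402. HARS was called lower with TMM scaling (limma adjusted p = 0.0463), by edgeR (0.0459) and without control replicate 1 (0.0343), and its alternatives spanned 0.0343 to 0.277. AARS and NARS carry TGATGCAA in their windows, as shown above.

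The levels per kb of exon of the genes that rose and of those that fell overlapped. In control libraries TARS was the highest synthetase gene at 1907 normalized reads per kb, followed by NARS at 1641 and KARS at 1487, while MARS at 196, HARS at 172, WARS at 160 and CARS at 82.0 were the lowest. Of the 5 genes that rose, GARS, EPRS and QARS lay in the middle of this order, at 1104, 952 and 847, and MARS and CARS near its end. With gefitinib GARS was the highest, at 2133 normalized reads per kb.

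**Figure D3:**
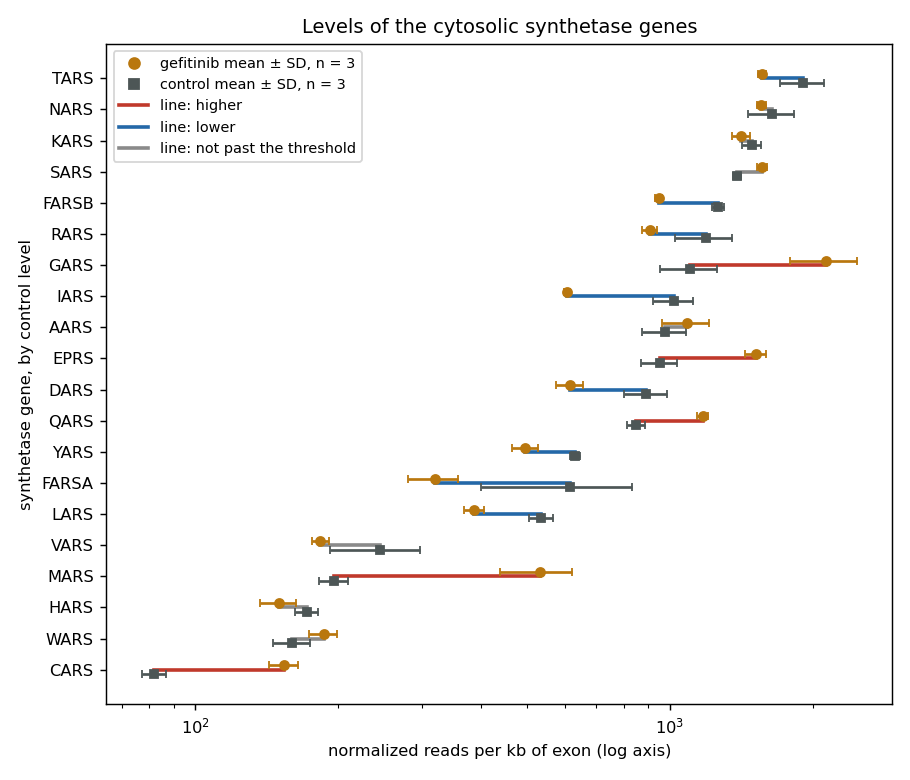
Mean normalized reads per kb of exon with SD (horizontal log axis) of the 20 synthetase genes in gefitinib and control libraries, ordered from the highest control level down; line colours give the call. TARS leads in control at 1907 per kb and GARS with gefitinib at 2133, and the 5 genes that rose lie between 82.0 and 1104 in control.

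In the cell 8 of these enzymes, EPRS, IARS, LARS, MARS, QARS, RARS, KARS and DARS, sit in 1 multisynthetase complex with scaffold proteins encoded by AIMP1, AIMP2 and EEF1E1. Its enzyme genes did not move together: 3 rose, 4 fell and 1 did not pass, with a median log2 difference of -0.23. So 37.5% were higher and 50% lower, where all tested genes also moved both ways, with 28.3% higher and 22.8% lower. Of the 12 enzyme genes outside the complex 2 rose (16.7%), 4 fell (33.3%) and 6 did not pass, with a median of -0.14. The scaffold genes were split too. AIMP2 had 354, 314 and 327 normalized reads with gefitinib and 1015, 1140 and 1182 in control (-1.74 ± 0.11, limma adjusted p = 3.38e-06), EEF1E1 fell by 0.94 ± 0.16, and AIMP1 rose by 0.82 ± 0.10. By catalytic fold, 3 of 9 class I enzyme genes rose (33.3%) and 4 fell (44.4%), while 1 of 10 class II genes rose (10%) and 4 fell (40%). EPRS, which joins both classes, is counted in neither.

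Most mitochondrial synthetases are encoded by nuclear genes separate from those of the cytosolic enzymes. Of 17 such genes 2 rose, 6 fell and 9 did not pass, with a median log2 difference of -0.07. By limma 11.8% were higher and 35.3% lower, against 28.3% and 22.8% of all tested genes. The share that passed in either direction was 47.1%, against 51.1%. EARS2, the mitochondrial glutamate enzyme, had a mean of 697 ± 63.2 normalized reads with gefitinib and 1801 ± 25.7 in control (SD, n = 3 each), with a log2 difference of -1.37 ± 0.09. MARS2, for methionine, also fell, with a difference of -0.74 ± 0.13, so the mitochondrial methionine gene went down and the cytosolic one up. Chosen after their values were seen, the 2 that rose are TARS2 and VARS2, for threonine and valine, at 0.89 ± 0.17 and 0.69 ± 0.17.

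Upstream of ATF4 stand the eIF2 kinases. EIF2AK3 encodes PERK, the kinase of the endoplasmic reticulum, and had 2311, 2604 and 2574 normalized reads with gefitinib and 1228, 1053 and 1097 in control (1.15 ± 0.09, limma adjusted p = 1.24e-05). EIF2AK4 encodes GCN2, the kinase that senses uncharged tRNA, and fell, with a difference of -0.45 ± 0.09, as did EIF2AK2, the gene of the double-stranded RNA kinase PKR, at -0.35 ± 0.09; EIF2AK1 did not pass. Among 9 genes of eIF2, its exchange factor eIF2B and the constitutive phosphatase guide PPP1R15B, 1 rose, EIF2B5 at 0.46 ± 0.12, 1 fell, EIF2B2 at -0.26 ± 0.09, and 7 did not pass. By limma 11.1% of the 9 were higher and 11.1% lower, against 28.3% and 22.8% of all tested genes. All these values are transcript levels, and eIF2 phosphorylation was not analysed here.

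A further list of 25 genes known as ATF4 targets also divided, with 12 higher, 9 lower and 4 not past the threshold and a median log2 difference of -0.06. That is 48% higher and 36% lower, against 28.3% and 22.8% of all tested genes. STC2, the gene of the secreted glycoprotein stanniocalcin, had a mean of 3046 ± 281 normalized reads with gefitinib and 17099 ± 362 in control (SD, n = 3 each), with a log2 difference of -2.49 ± 0.08. CEBPB, which encodes another dimer partner of ATF4, fell by 1.52 ± 0.10, and GOT1, an aspartate aminotransferase gene, rose by 1.36 ± 0.08. Genes for chaperones of the endoplasmic reticulum and targets of XBP1 or ATF6, the other branches of the unfolded protein response, were mostly higher, with 13 of 20 up, 1 down and 6 not past the threshold and a median of 0.52. Their shares were 65% higher and 5% lower, against the same 28.3% and 22.8% of all tested genes. HERPUD1, a gene of protein disposal from the endoplasmic reticulum, had a mean of 4672 ± 1154 with gefitinib and 730 ± 63.0 in control, ATF6 itself rose by 1.06 ± 0.09, and the chaperone gene CALR by 0.77 ± 0.07. The gene that fell was EDEM1, of the disposal pathway, at -0.64 ± 0.09, named after its value was seen. HERPUD1 is also known as an ATF4 target. Of 8 housekeeping genes, 3 rose, 3 fell, among them ACTB at -0.76 ± 0.16 and PGK1 at -0.28 ± 0.07, and 2 did not pass.

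**Figure D4:**
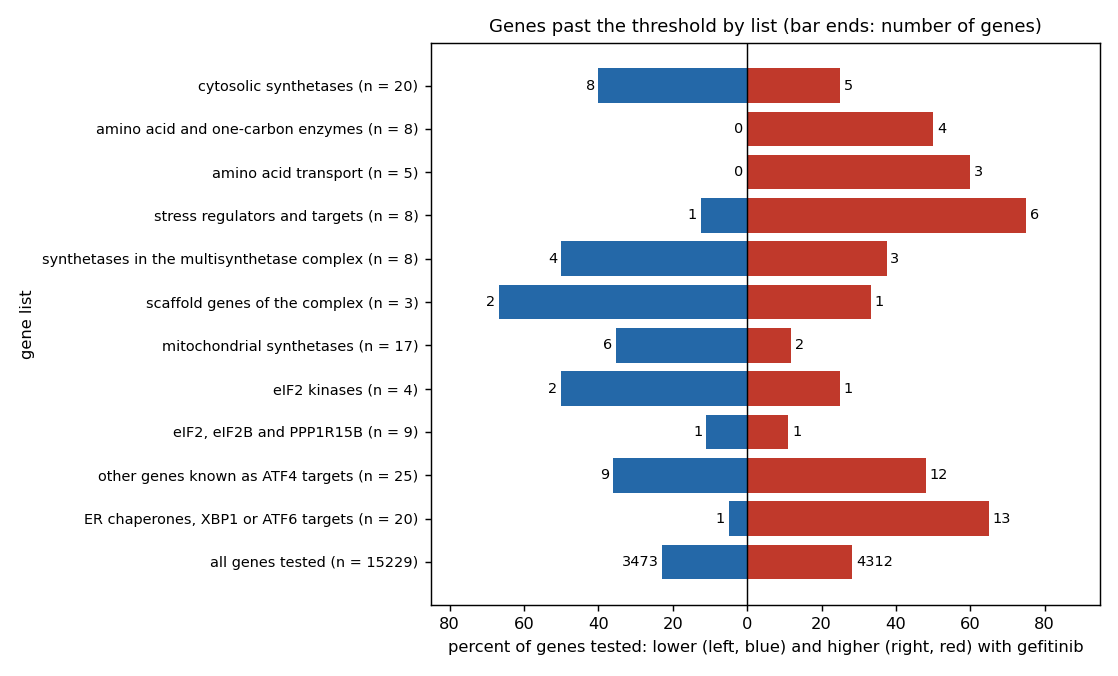
Percent of the tested genes of each list that were lower (left) or higher (right) with gefitinib (limma, adjusted p under 0.05); numbers at the bar ends count the genes. Stress regulators and targets had 6 of 8 higher and 1 lower, cytosolic synthetases 5 higher and 8 lower of 20, and all tested genes 28.3% higher and 22.8% lower.

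Genes with the promoter core moved in both directions, as did genes without it. Of the 13 members with TGATGNAA in a window 7 rose, 2 fell and 4 did not pass, and their median log2 difference was 0.39. Of the 20 members with windows but without the core 11 rose, 4 fell and 5 did not pass, with a median of 0.44. The 8 members with no window are in neither count: 3 of them fell and 5 did not pass, with a median of -0.19. All tested genes were 28.3% higher and 22.8% lower by limma. Among the risers without the core were ATF4, DDIT3, PPP1R15A, PSAT1, PHGDH and MTHFD2. Members with the core had 22 windows in all and those without had 28, so no match says only that these letters are not in those windows.

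**Figure D5:**
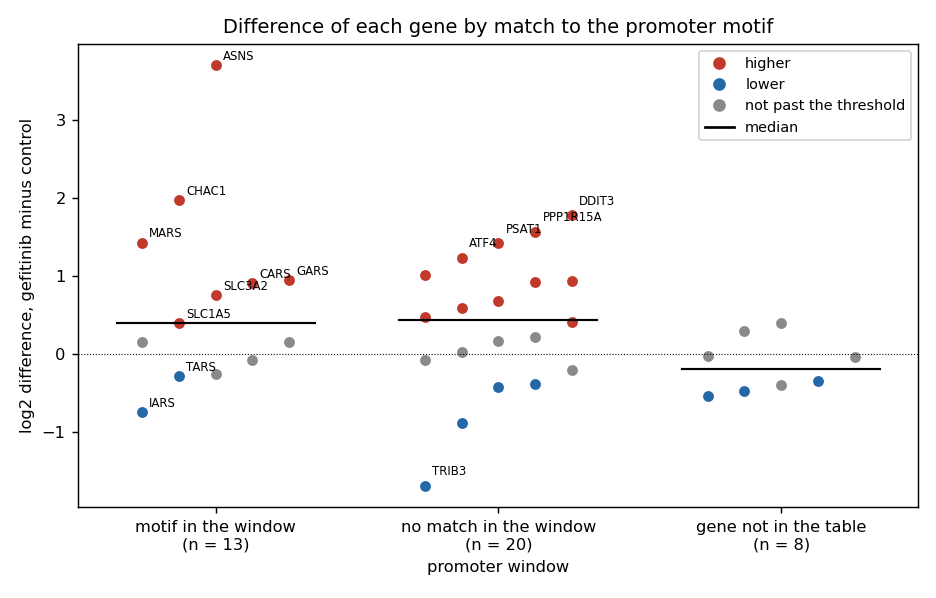
Log2 difference, gefitinib minus control (vertical axis), of each member, grouped by whether a RefSeq promoter window held the core, held none, or was not in the table; black lines are medians. The 13 genes with the core range from -0.74 in IARS to 3.70 in ASNS, and their median of 0.39 lies near the 0.44 of the 20 genes without it.

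Some of these genes share sequence or exons with others, and the sources used here do not give whether reads were counted by strand. DDIT3 and MARS, which lie tail to tail on chromosome 12 and both rose, share 355 bp of exon on opposite strands, which is 27.2% of the exon length of DDIT3 and 5.05% of that of MARS. On the other strand, MTHFD2 overlaps SLC4A5 over 27.2% of its exons, SLC1A5 overlaps the antisense gene AC008622.2 over 23.4%, and ATF5 overlaps NUP62 over 21.2%. In ASNS 44.6% of the exon length is also assigned to the transcript AC079781.5 on the same strand. GENCODE names 7 pseudogenes of MTHFD2, 4 each of ASNS, PSAT1 and ATF4, 3 of KARS and 2 each of CARS and SLC7A5, so a part of their reads may be of uncertain origin. The part of these overlaps and copies in the differences was not tested.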

How the data were processed

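RNA was sequenced from 3 gefitinib and 3 control libraries, grouped by title; STAR, HTSeq and GRCh38 are listed, per the submitters' processing notes. The deposited values are a signal: the authors' gene counts, scaled to 1 shared total per library. Whole reads were recovered from them (100% whole within 0.01 read); a count test on these, edgeR 4.0.16 quasi-likelihood, called 3707 genes higher and 3752 lower of 12167. A second table's 6 per-sample columns match no label and were not used.

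Of 15376 rows, 15229 had reads and were tested with limma-trend 3.58.1 on log2(value + 1); p-values are 2-sided, with the Benjamini-Hochberg method applied to all tested genes and a threshold of 0.05. Changes of low genes are understated on that scale. Errors after ± are SE unless named SD. Exons and overlaps are from GENCODE 29, promoter windows from RefSeq. Members and lists were chosen with earlier results of these data known. All members are named, and from each list the 3 genes with the smallest p past the threshold, except some that are not reported here; KRT8, EPCAM, CDH1 and SFTPB were named as markers after their values were seen. Scripts were tested on simulated data. Alternatives were pseudocounts of 0.5 and 5, 2 filters on low values, TMM and DESeq2 size factors, edgeR, DESeq2 1.42.0, limma-voom, a replicate block and leaving out each library. Depth limits ALDH1L2 most.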

Additional observations from a re-analysis of the deposited data

How the results depend on the processing

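Under 16 alternatives, 29 of the 41 genes kept their direction and their side of the threshold wherever they were tested. The members called higher numbered 18, and from 17 to 20 in the alternatives; those called lower numbered 9, and from 8 to 12. Leaving out 1 library gave 17 to 19 higher and 8 to 12 lower. The number of transporters called lower was 0 and became 1, SLC7A1, with TMM factors, DESeq2 size factors, edgeR, DESeq2, limma-voom and the replicate block, and was from 0 to 1 when 1 library was left out. Signs turned for 4 genes that did not pass the test in any alternative. SLC38A2, at 0.03 on the log2 scale, was at -0.029 with TMM factors, -0.033 with DESeq2 size factors, -0.032 with edgeR, -0.038 with DESeq2 and -0.025 with limma-voom, and between -0.040 and 0.12 with 1 library left out; NARS, PSPH and PYCR1 then ranged from -0.12 to 0.018, from -0.069 to 0.00052 and from -0.26 to 0.15. Whether the replicate numbers pair the libraries is not stated. After each gene's group mean was subtracted, the log2 deviations of same-numbered libraries correlated at 0.127, 0.0444 and 0.0947 over 12097 genes. These are not correlations of expression levels. With the replicate block 20 members were higher, with SARS and WARS added (limma adjusted p = 0.0487 and 0.0468). In the same fit 11 were lower, with VARS and SLC7A1 added (limma adjusted p = 0.0304 and 0.0284). In the deviations, each gefitinib library correlated best with the control of its own number. Control replicates 1 and 3 did likewise, while control replicate 2 correlated better with gefitinib replicate 3 (0.0862) than with gefitinib replicate 2 (0.0444). ALDH1L2 was not tested where low values were filtered out. The causes were not tested.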
